A study of Mus musculus with 2 samples.

Results

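Genes of the nuclear pore, the nuclear lamina and nuclear transport were compared between cortical fiber cells and epithelial cells of the mouse lens. The set held 41 genes, measured by 51 probes, of 13709 genes on the array. It took every gene whose symbol names a nucleoporin (Nup and a number), a lamin, a karyopherin, a numbered importin or exportin, the Ran cycle genes Ran, Rangap1 and Rcc1, or the envelope genes Lbr, Emd, Banf1, Tmpo, Sun1, Syne1 and Syne2. Sun2 was not analysed here. One array was hybridized with poly(A) RNA of the cortex, the outer layers of fiber cells, and 1 with poly(A) RNA of the epithelium, which was taken with the capsule to which it adheres. By the series' design text the lenses came from 5 mice aged 13 days, while a free-text label of both samples speaks of fetal liver. For the lenses, the sources used here do not state the strain, the genotype or whether the lenses were pooled. With 1 array per cell population, no difference below has a replicate check and no p-value is given. In RNA from whole tissue pieces, fewer cells of a type and less RNA per cell cannot be told apart.

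The nuclear pore is a ring of nucleoporins set in the nuclear envelope. Importins and exportins carry proteins and RNA through it, and the GTPase Ran, charged in the nucleus by Rcc1 and discharged in the cytoplasm by Rangap1, sets the direction. The lamina of A-type and B-type lamins lines the inner membrane, where Lbr, emerin (Emd) and LAP2 (Tmpo) bind it to chromatin, and LINC complexes of SUN proteins and nesprins join it to the cytoskeleton. Lens fiber cells dismantle their nuclei as they mature, so the set covers the structures that are lost, and the comparison asks how their transcripts differ between fibers and the dividing or quiescent epithelium.

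Each value is a normalized intensity, where 1 is the median of the array. A floor was set at 0.5 of the median (0.499 on both arrays), and for a gene below it on 1 array the fold is a lower limit, written "at least". A gene was called higher in a population when its intensity there was at least 3 times the other and no lower than the median of that array. Levels of different probes cannot be compared with each other, so only the cortex and epithelium values of the same probe are set side by side. The spread between probes of a gene is the only error the arrays give. For 558 genes with several probes measured on both sides, probes of a gene differed with a pooled SD of 1.10 and a median SD of 0.59 in their log2 difference.

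Most of the set, like most of all genes, did not pass a limit of 3-fold between the populations. The genes of the set past that limit were mainly higher in epithelium. By the 3-fold rule, Ipo13 alone was higher in cortex, and Tmpo, Lbr, Kpna2, Nup107, Lmnb2, Sun1 and Nup37 were higher in epithelium, which makes 1 and 7 of the 41 genes. These are 2.44% of the set in cortex and 17.1% in epithelium, beside background shares, over all 13709 genes, of 9.41% in cortex and 8.17% in epithelium. A 2-fold rule called 5 of them in cortex and 10 in epithelium, beside 16.4% and 15.3% of all genes. Another 26 were measured on both arrays and stayed under 3-fold, 2 had a bound under 3-fold, and 5 were at the floor on both. The 33 genes measured above the floor on each array had a median log2 difference (cortex minus epithelium) of -0.30, with quartiles of -1.18 and 0.41. The median over all 8351 such genes was 0.03, with quartiles of -0.80 and 0.89. Of the 33, 12 were brighter in cortex and 21 in epithelium, and 20 differed by less than 2-fold. These 20 are 60.6% of the 33, near the 57.0% of all 8351 genes that differed by less than 2-fold. The genes brighter in epithelium are 63.6% of the 33 and 49.0% of the 8351. The SD of the log2 difference was 1.15 over the 33 genes and 1.49 over all 8351. For probes of 1 gene the pooled SD was 1.10 and the median SD was 0.59.

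**Figure D1:**
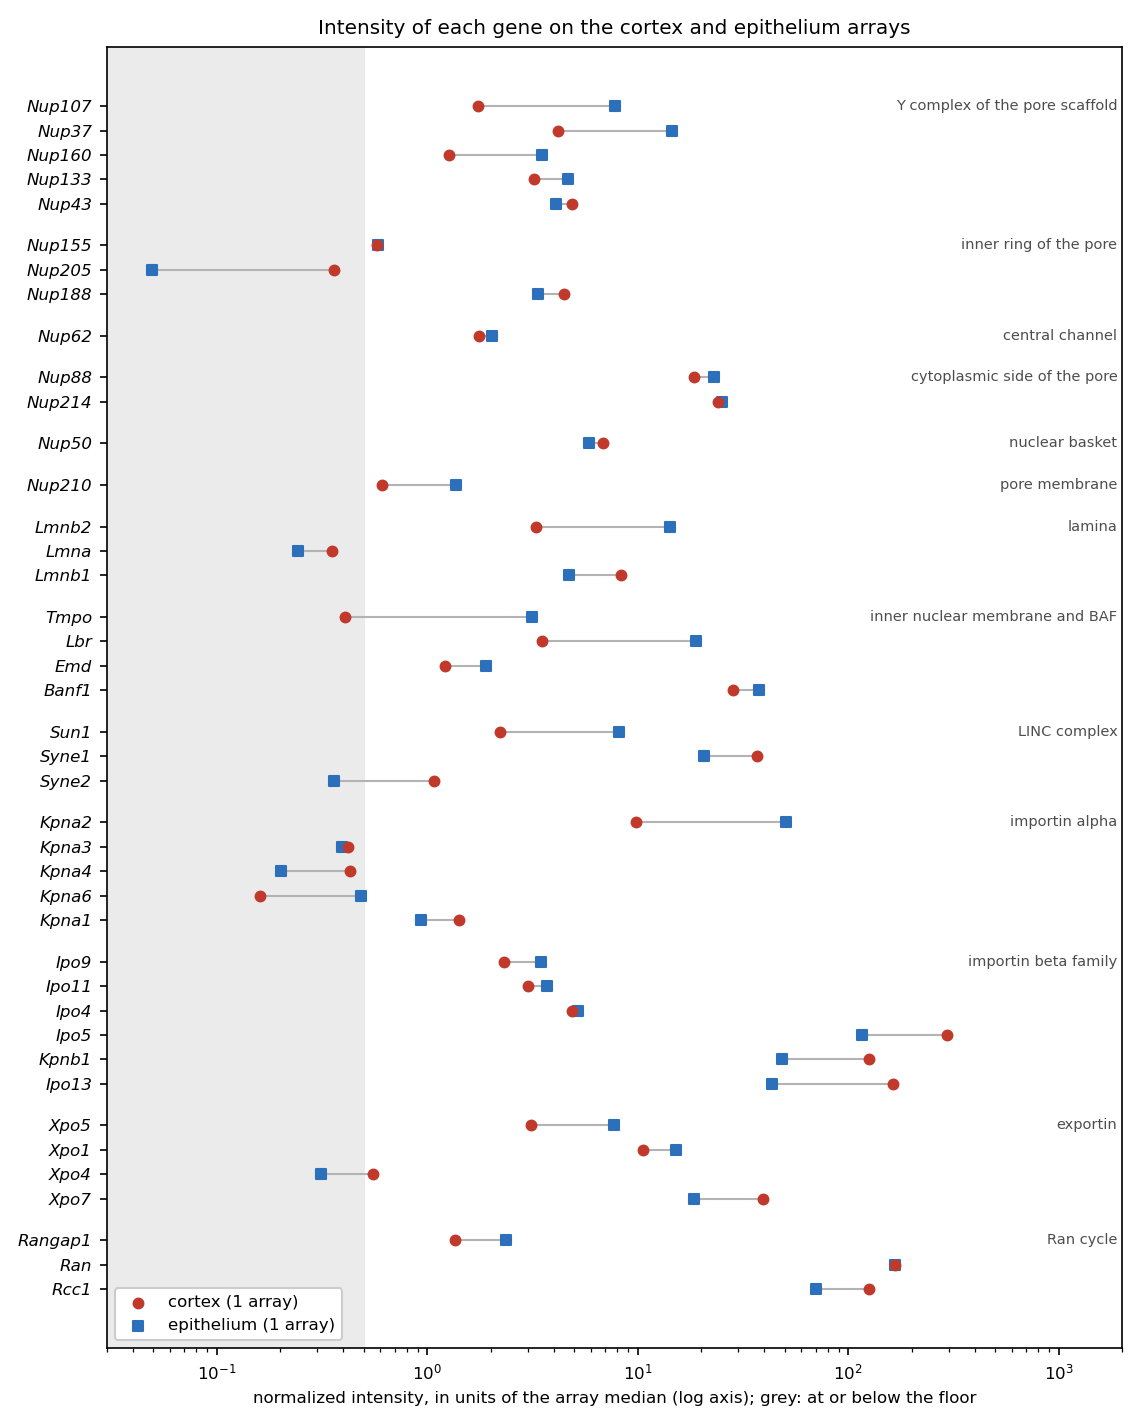
Normalized intensity of the 41 genes on the cortex array (circles) and the epithelium array (squares), on a log axis in units of the array median and grouped by role; each point is 1 probe on 1 array and the grey band lies at or below the floor. The epithelium square lies right of the cortex circle for Nup107, Nup37, Lmnb2, Tmpo, Lbr, Sun1 and Kpna2, and left of it for Ipo5, Kpnb1 and Ipo13.

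The genes higher in epithelium lie in several parts of the machinery. Promoter windows of 3 of the 7 hold both CCAAT and TTTGAA, motifs known from cell cycle genes. No window of Lmnb2, Nup107, Sun1 or Tmpo holds both. The element CCAAT binds NF-Y, and TTTGAA is the core of the cell cycle genes homology region. Both were searched on both strands, as CCAAT or ATTGG and as TTTGAA or TTCAAA, in RefSeq windows from 250 bases before to 50 bases after each gene's start. The windows printed here are those of Kpna2 (chr11:106999476-106999775, minus strand), Lbr (chr1:181842352-181842651, minus strand) and Nup37 (chr10:88146742-88147041, plus strand), the called genes with both elements in 1 window, and of Ipo13 (chr4:117914950-117915249, minus strand), the gene higher in cortex, in build GRCm38.p6. Each is written 5′ to 3′ on the gene's strand, with matches to either element in capitals.
Kpna2: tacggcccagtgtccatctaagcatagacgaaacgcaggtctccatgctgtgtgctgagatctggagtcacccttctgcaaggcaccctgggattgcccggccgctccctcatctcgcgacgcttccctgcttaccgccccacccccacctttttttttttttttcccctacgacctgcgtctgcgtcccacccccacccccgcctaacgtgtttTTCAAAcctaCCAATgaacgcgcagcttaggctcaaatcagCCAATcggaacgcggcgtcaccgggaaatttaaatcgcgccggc
Lbr: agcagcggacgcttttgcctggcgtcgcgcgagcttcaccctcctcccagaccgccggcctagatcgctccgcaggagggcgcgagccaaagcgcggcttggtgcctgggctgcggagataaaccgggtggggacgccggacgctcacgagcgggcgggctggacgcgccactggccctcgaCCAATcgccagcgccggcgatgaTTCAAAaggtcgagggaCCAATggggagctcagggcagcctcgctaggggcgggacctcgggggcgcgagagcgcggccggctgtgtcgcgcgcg
Nup37: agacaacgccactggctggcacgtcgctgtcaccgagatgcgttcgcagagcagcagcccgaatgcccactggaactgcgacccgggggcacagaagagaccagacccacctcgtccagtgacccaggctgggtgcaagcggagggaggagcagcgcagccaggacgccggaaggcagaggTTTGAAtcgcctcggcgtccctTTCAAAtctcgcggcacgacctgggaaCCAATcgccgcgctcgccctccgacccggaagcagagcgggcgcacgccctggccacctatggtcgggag
Ipo13: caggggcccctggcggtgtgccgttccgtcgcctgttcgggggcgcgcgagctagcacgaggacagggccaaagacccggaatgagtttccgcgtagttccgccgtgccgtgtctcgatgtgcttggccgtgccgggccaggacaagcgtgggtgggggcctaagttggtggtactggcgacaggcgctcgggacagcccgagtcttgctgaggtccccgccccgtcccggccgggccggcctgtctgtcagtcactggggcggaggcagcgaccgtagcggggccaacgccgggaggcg

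In the Kpna2 window TTCAAA began 35 bases before the start and CCAAT began 25 bases before and 6 bases after it. In the Lbr window TTCAAA began 45 bases before the start, between CCAAT at 68 and CCAAT at 28 bases before. The Nup37 window held TTTGAA at 69 bases, TTCAAA at 47 bases and CCAAT at 20 bases before the start, and a second, overlapping Nup37 window held the same matches. No match to either element overlapped another. Ipo13 had no match to either.

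Of the 41 genes, 34 had a RefSeq window here, with 44 windows in all. Both elements stood together in 4 of the 11 windows of the 7 genes higher in epithelium (36.4%, from 3 genes), in none of the 32 windows of the 26 genes not called, and in 6.95% of all 32851 windows. TTTGAA, with or without CCAAT, was in 45.5% of the windows of genes higher in epithelium, 9.38% of those not called and 17.9% of all, and TTTGAA without CCAAT was in 1 of the 11, 3 of the 32 and 10.9% of all. CCAAT was in 63.6%, 46.9% and 37.4% of them. For comparison, both elements were in 12 of 26 windows of S phase and mitosis genes (46.2%). Windows of 1 gene overlap or share sequence in some cases, and a match describes letters in a window, not a site in use. TTTCCCGC, an E2F-type sequence, was in 1 of the 11 windows, GGCGGGAA in 1 and TATAAA in 1 (9.09% each). Their shares were 6.25%, 9.38% and 9.38% in the windows of genes not called, and 1.07%, 2.19% and 13.6% in all windows.

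Among the structural nucleoporins, the called genes both belong to the Y complex, the outer scaffold of the pore. Nup107 stood at 1.75 in cortex and 7.81 in epithelium, 4.46-fold higher in epithelium. Nup37 stood at 4.19 in cortex and 14.5 in epithelium, 3.47-fold higher in epithelium. Nup160 came just under the limit, with 1.27 in cortex and 3.49 in epithelium (2.75-fold). The other subunits of the complex differed less than these. Nup133 stood at 3.21 in cortex and 4.66 in epithelium, and Nup43 at 4.90 in cortex and 4.09 in epithelium. A second Nup133 probe was under the floor on both arrays. The median log2 difference of these 5 subunits was -1.46. Sec13 and Seh1l encode further subunits that the symbol rule does not reach. Sec13 had 27.9 in cortex and 34.5 in epithelium, and Seh1l had 4.05 in cortex and 4.97 in epithelium. With both, the median over 7 subunits was -0.54, so its size rests on which subunits are counted. The 5 in the set ran from -2.16 to 0.26 on the log2 scale. Their SD was 0.99, below the pooled probe SD of 1.10 and above the median probe SD of 0.59.

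The rest of the pore differed by less than 3-fold wherever it was measured. In the inner ring, Nup155 stood at 0.580 in cortex and 0.586 in epithelium, close to the floor, and Nup205 was at the floor on both arrays. Nup188 gave opposite answers from its 2 probes. The brighter stood at 4.45 in cortex and 3.35 in epithelium, the dimmer at 0.961 in cortex and 2.21 in epithelium, a gap of 3.06-fold between the probes, so no direction can be given. Nup62, an FG-repeat protein of the central channel, had 1.77 in cortex and 2.03 in epithelium.

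On the cytoplasmic face, Nup214 and its partner Nup88 were nearly level in the deposited scaling. Nup214 stood at 24.0 in cortex and 25.1 in epithelium, and its second probe at 22.2 in cortex and 24.2 in epithelium, so both probes put the log2 difference between -0.13 and -0.07. Nup88 had 18.4 in cortex and 22.9 in epithelium. Nup214 had log2 differences of -0.51 after quantile normalization, -0.34 after loess on brightness and -0.99 after centring on ribosomal protein genes. Those of Nup88 were -0.71, -0.51 and -1.24. Nup50 of the nuclear basket had 6.87 in cortex and 5.87 in epithelium, and its second probe differed by 0.30 on the log2 scale against 0.23 for the first. Nup214 and Nup50 are the pore genes for which 2 probes agreed closely. Nup210, which spans the pore membrane, had 0.607 in cortex and 1.37 in epithelium (2.26-fold), with the cortex value near the floor. Of the 13 nucleoporins, 2 were called higher in epithelium (15.4%, beside 8.17% of all genes) and none in cortex (beside 9.41% of all genes).

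The lamina and the inner membrane held 3 of the 7 genes higher in epithelium. With the LINC complex, 4 of 10 genes were called in epithelium (40.0%, beside 8.17% of all genes) and none in cortex (beside 9.41%). Lmnb2, encoding lamin B2, stood at 3.31 in cortex and 14.2 in epithelium, 4.29-fold higher in epithelium. The other B-type lamin gene, Lmnb1, ran the other way without passing the limit, with 8.31 in cortex and 4.71 in epithelium (1.76-fold). The Lmnb1 difference was 0.71 after quantile normalization, 0.94 after loess on brightness and -0.11 after centring on ribosomal protein genes. The log2 differences of the B-type lamin genes were therefore -2.10 for Lmnb2 and 0.82 for Lmnb1, each from 1 probe. Lmna, encoding lamins A and C, was at 0.352 in cortex and 0.243 in epithelium, under the floor on both arrays, so its difference is not known. Since the floor was set here and is no detection limit, these values do not show that Lmna was absent.

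Lbr and Tmpo were called from 1 probe each, and in both cases a second probe did not show the difference. Lbr, the lamin B receptor and a sterol reductase, stood at 3.53 in cortex and 19.0 in epithelium (5.38-fold). Its second, dimmer probe had 0.625 in cortex and 0.552 in epithelium, close to the floor, a log2 difference of 0.18 against -2.43. Tmpo, encoding LAP2, was under the floor in cortex (0.406) and at 3.14 in epithelium, at least 6.29-fold higher in epithelium. The second Tmpo probe was under the floor on both arrays, with 0.312 in cortex and 0.364 in epithelium. When the probes of a gene were averaged, the log2 differences were -1.12 for Lbr and -1.33 for Tmpo, and neither passed 3-fold. The second Tmpo probe, under the floor on both arrays, entered its average with a difference of 0. With second probes under or close to the floor, these averages cannot show whether the differences of the first probes hold. The emerin gene Emd had 1.21 in cortex and 1.90 in epithelium, and Banf1, encoding the chromatin-bridging protein BAF, had 28.3 in cortex and 37.8 in epithelium, both under 2-fold.

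The LINC complex genes differed in opposite directions. Sun1, whose protein spans the inner membrane, stood at 2.22 in cortex and 8.16 in epithelium, 3.67-fold higher in epithelium. Its outer membrane partners were brighter in cortex, under the limit. Syne1 (nesprin-1) had 36.7 in cortex and 20.6 in epithelium (1.78-fold), and Syne2 (nesprin-2) had 1.08 in cortex and lay under the floor in epithelium (0.362), at least 2.17-fold. The second Syne2 probe was under the floor on both arrays. The Syne1 difference was 0.39 after quantile normalization, 0.52 after loess on brightness and -0.09 after centring on ribosomal protein genes. Its direction thus turned in 1 of the 3 other scalings.

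**Figure D2:**
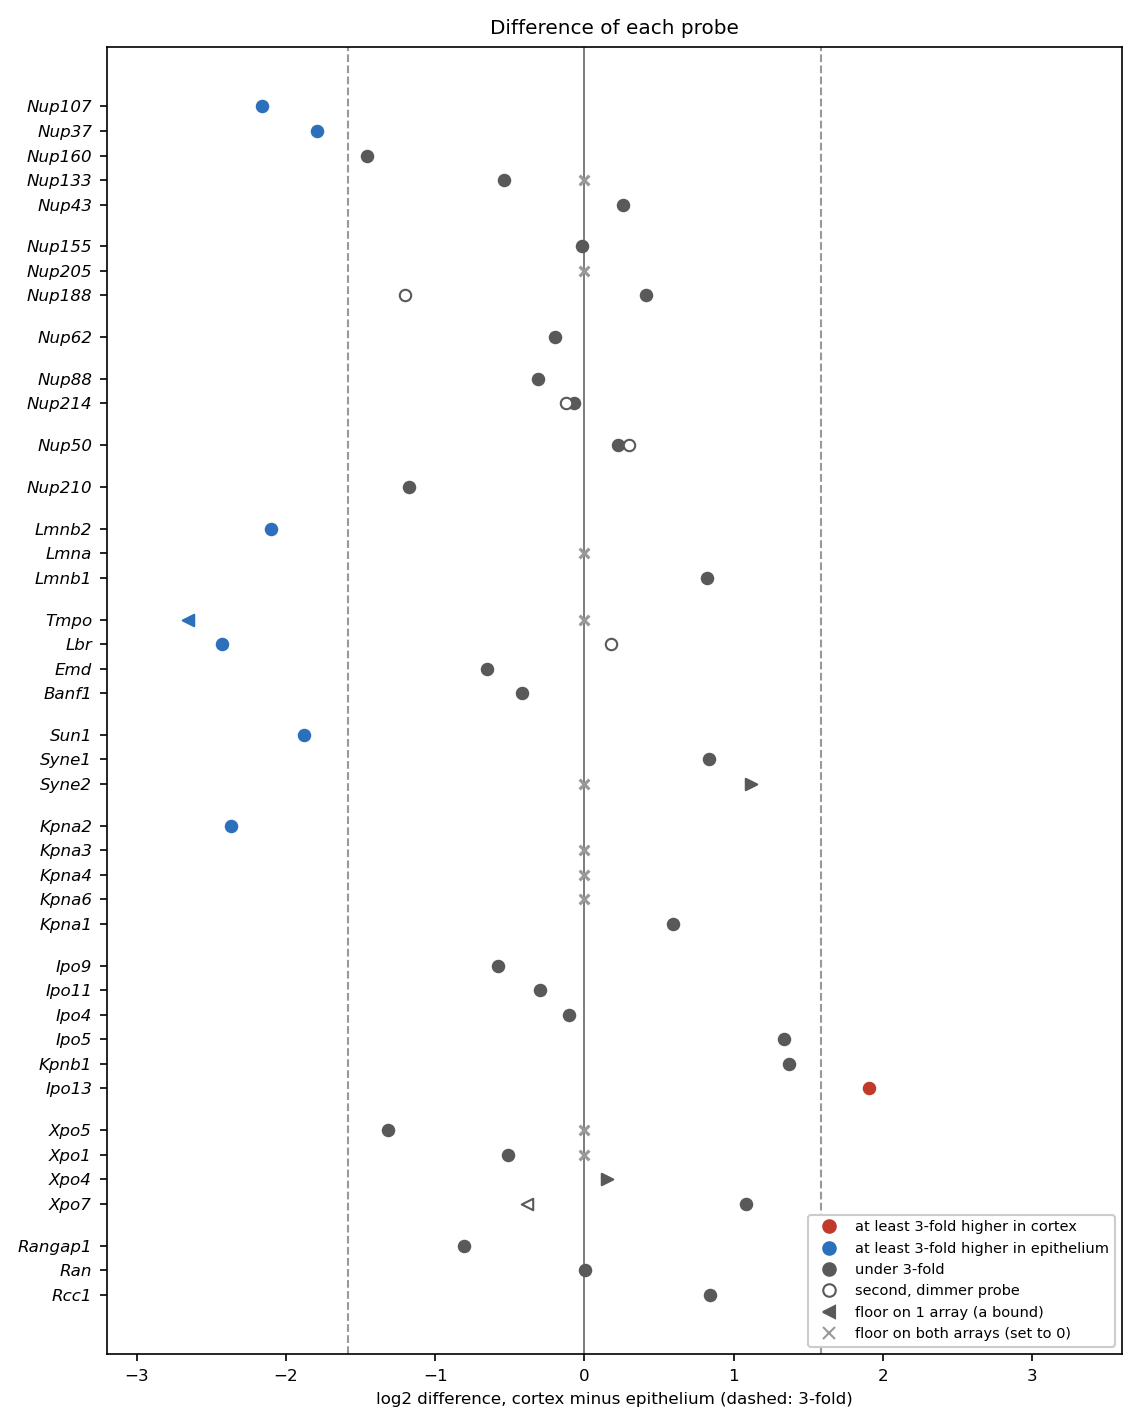
Log2 difference (cortex minus epithelium) of all 51 probes, in the same order of genes; filled symbols are the probe used for the gene, open symbols a second probe, triangles a bound and crosses probes at the floor on both arrays, drawn at 0. The second probes of Lbr and Nup188 lie on the other side of 0 from the first, while those of Nup214 and Nup50 lie next to it.

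Of the 15 transport receptors, 1 was called in cortex (6.67%, beside a background share of 9.41%) and 1 in epithelium (6.67%, beside 8.17%). Neither share exceeded its background. Of the 11 receptors above the floor on both arrays, 5 were brighter in cortex and 6 in epithelium. Kpna2, an importin α adaptor that binds the nuclear localization signal of cargo, stood at 9.84 in cortex and 50.7 in epithelium, 5.15-fold higher in epithelium. Its carrier Kpnb1, importin β, had 126 in cortex and 48.6 in epithelium, 2.59-fold brighter in cortex and under the limit. The log2 differences of the adaptor and its carrier were -2.37 and 1.37, and their signs were the same in all 4 scalings. Kpna1 had 1.42 in cortex and 0.937 in epithelium, and Kpna3, Kpna4 and Kpna6 were under the floor on both arrays, so Kpna2 could be set against Kpna1 only.

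Among the importins that bind cargo directly, Ipo13 was the gene called in cortex. Ipo13, which carries Ubc9 into the nucleus and eIF1A out of it, stood at 163 in cortex and 43.5 in epithelium (3.74-fold). Ipo5, a receptor for histones and ribosomal proteins, had 294 in cortex and 116 in epithelium (2.53-fold), under the limit. The log2 difference of Ipo13 was 1.09 after quantile normalization, 1.16 after loess on brightness and 0.98 after centring on ribosomal protein genes, and it did not pass 3-fold in any of these. Ipo13, Kpnb1 and Ipo5 kept the sign towards cortex in each of these scalings, with values down to 0.29 for Ipo5 and 0.45 for Kpnb1. Ipo4, Ipo9 and Ipo11 differed by less than 2-fold, with log2 differences of -0.10, -0.58 and -0.30.

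The exportins included differences in both directions, none past 3-fold. Xpo5, the exporter of microRNA precursors, had 3.10 in cortex and 7.72 in epithelium (2.49-fold brighter in epithelium), with a second probe under the floor on both arrays. Xpo7, which in mouse erythroblasts is needed for chromatin condensation before the nucleus is expelled, had 39.4 in cortex and 18.6 in epithelium (2.12-fold brighter in cortex). Its second probe went the other way, under the floor in cortex (0.460) and at 0.651 in epithelium, near the floor. Xpo1, the main exporter of proteins with a leucine-rich signal, had 10.6 in cortex and 15.1 in epithelium (1.43-fold). A second Xpo1 probe was under the floor on both arrays. Xpo4 was at 0.554 in cortex and under the floor in epithelium (0.313), so its bound was 1.11-fold.

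In the deposited scaling, the genes of the Ran cycle all differed by less than 2-fold. Ran itself had an intensity of 167 in cortex and of 167 in epithelium. Equal values hold for the deposited scaling only, since the log2 difference of Ran was -0.95 after loess and -0.92 after centring on ribosomal protein genes, and Ran was also brighter in epithelium after quantile normalization. Rcc1, the exchange factor, had 126 in cortex and 70.3 in epithelium (1.79-fold), and its difference was near 0 in the other scalings (-0.04 after quantile normalization, 0.07 after loess and -0.08 after ribosomal centring). Rangap1, the activating protein, had 1.36 in cortex and 2.38 in epithelium (1.75-fold), and it passed 3-fold in epithelium after centring on ribosomal protein genes (-1.73). RefSeq lists a Kpna2 pseudogene and a Ran-like gene, and signal from such copies cannot be told apart here from Kpna2 and Ran.

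The difference was more positive among bright genes, in the set and over all genes. Genes with a mean log2 intensity of 4 or more had a median log2 difference of 0.84 in the set (11 genes) and 0.50 over all (1711 genes). Between 2 and 4 the medians were -0.91 in the set (10 genes) and -0.08 over all (2727 genes), and under 2 they were -0.56 (12 genes) and -0.09 (3913 genes). The Spearman rho of brightness and difference was 0.39 over the 33 genes and 0.16 over all 8351, as a description of the same 2 arrays. Among the 11 genes with a mean of 4 or more, Kpna2 was the gene called in epithelium and Ipo13 the gene called in cortex.

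**Figure D3:**
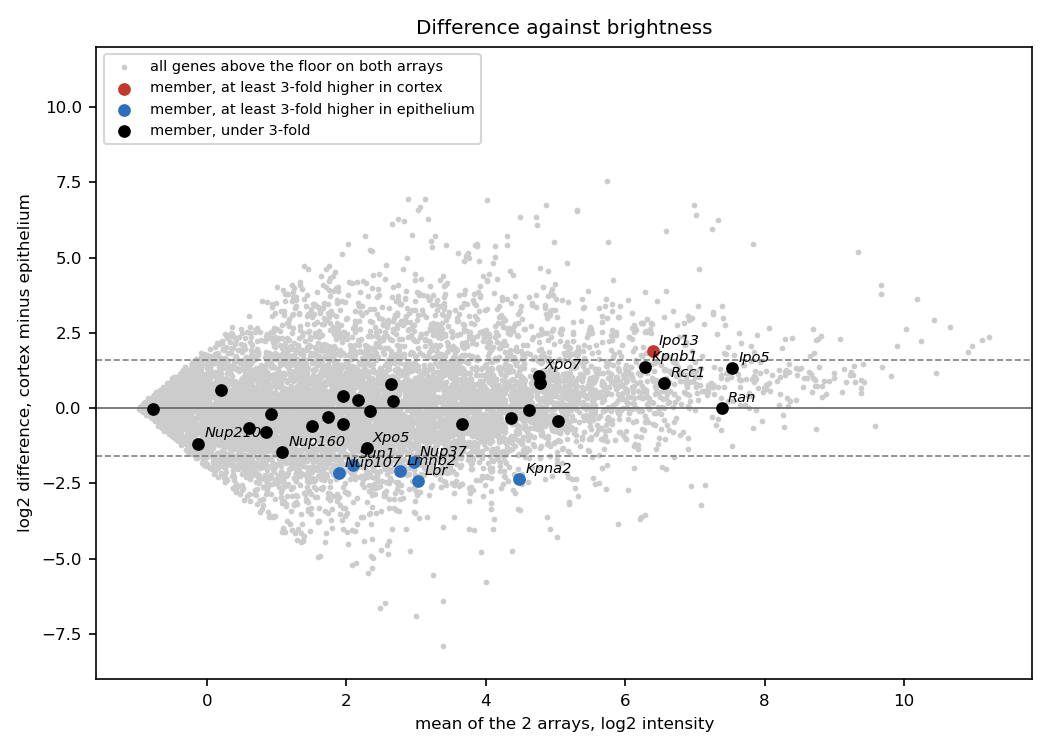
Log2 difference (cortex minus epithelium) against the mean log2 intensity of the 2 arrays, for all 8351 genes above the floor on both arrays (grey) and the 33 genes of the set (coloured by call, black under 3-fold). Ipo13, Kpnb1, Ipo5 and Rcc1 lie above 0 at the bright end, and Kpna2, Lbr, Lmnb2, Nup37, Sun1 and Nup107 lie below the lower dashed 3-fold line.

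All 7 genes called in epithelium also passed 3-fold after quantile normalization and after loess on brightness, and Ipo13 passed after neither. A new scaling does not replace a second probe. Of the called genes, 2 (Lbr and Tmpo) had a second probe, and it did not show the difference. Kpna2, Nup107, Lmnb2, Sun1, Nup37 and Ipo13 had 1 probe each. The log2 differences of the 7 ran from -1.72 (Nup37 after loess) to -2.89 (Kpna2 after quantile normalization). Centring on ribosomal protein genes lowers the difference of each gene above the floor by 0.93, so the 7 pass it by construction. It also called Nup160, Nup210, Rangap1 and Xpo5, and with it the median of all genes measured on both arrays was -0.89. The sign turned for 2 of the 41 genes after quantile normalization (Ran and Rcc1) and for 2 after loess (Ran and Ipo4). Ribosomal centring turned 9, all with a difference between 0 and 0.93 in the deposited scaling.

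**Figure D4:**
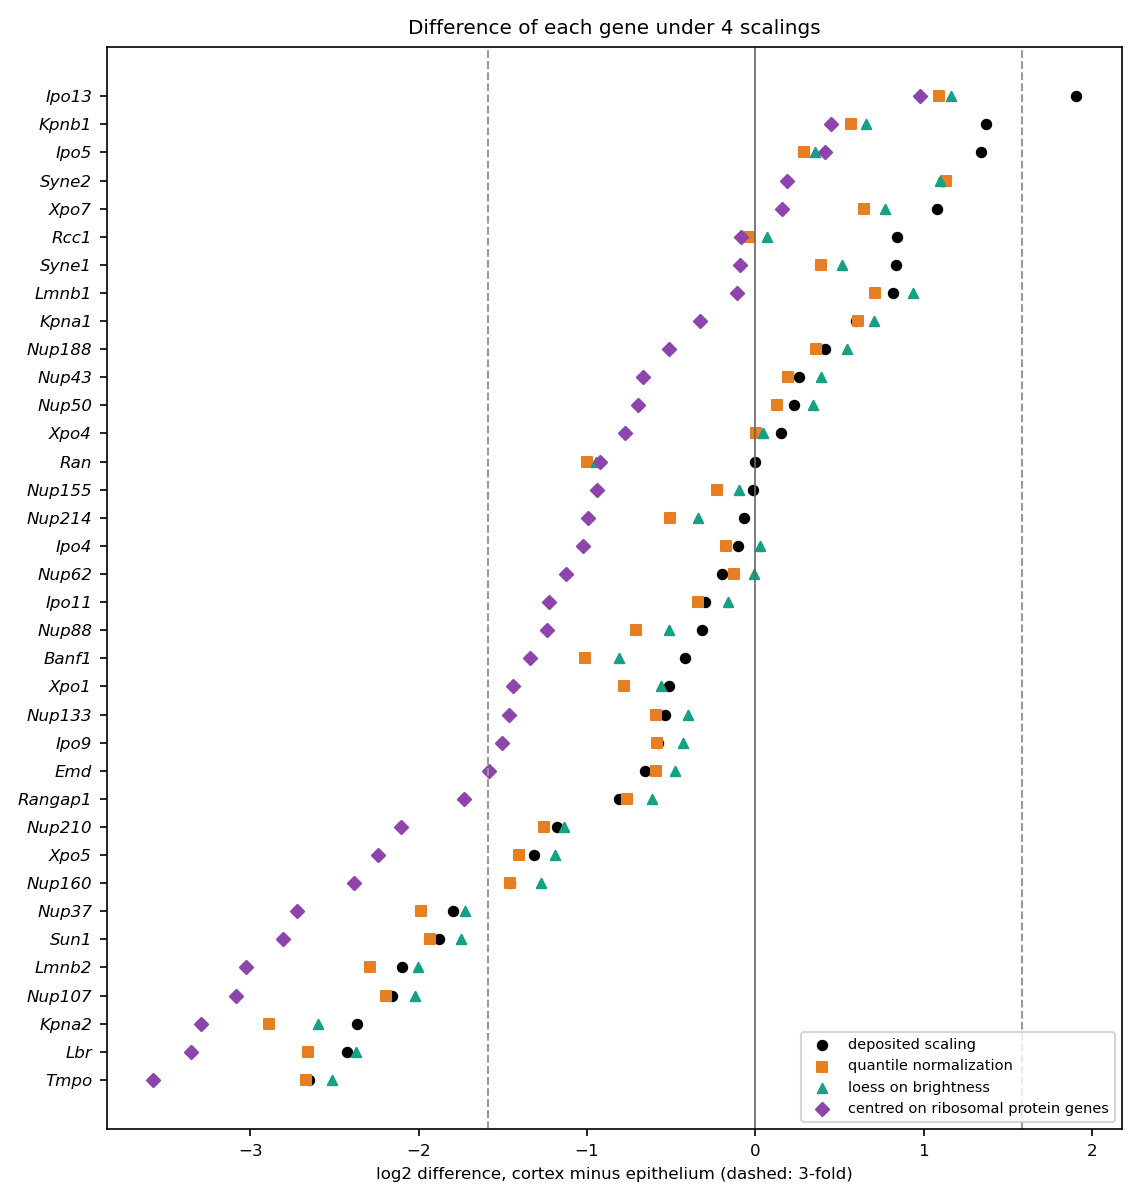
Log2 difference (cortex minus epithelium) of the 36 genes that exceeded the floor on 1 array or both, with the deposited scaling (circles), quantile normalization (squares), loess on brightness (triangles) and centring on ribosomal protein genes (diamonds); dashed lines mark 3-fold. The 7 lowest genes stay left of the lower dashed line after quantile normalization and loess too, and Ipo13 lies past the upper line with the deposited scaling alone.

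Genes of the same machinery that the symbol rule does not reach gave few calls. Of 45 measured, 2 passed the 3-fold rule in cortex and 3 in epithelium (4.44% and 6.67%, beside 9.41% and 8.17% of all genes), and the median log2 difference of the 38 above the floor on both arrays was -0.47. None of 10 further pore genes was called. Beside Sec13, the brightest of them were Rae1, which also acts in mRNA export (6.90 in cortex, 12.7 in epithelium), and Aaas (8.66 in cortex, 9.13 in epithelium). None of 7 further Ran cycle and receptor genes was called. Cse1l, which returns importin α to the cytoplasm, had 5.21 in cortex and 10.1 in epithelium, and Ranbp1 had 47.0 in cortex and 34.7 in epithelium.

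The calls lay in mRNA export and in the envelope. Ddx39b, a helicase that loads mRNA export factors, had 6.95 in cortex and 27.9 in epithelium (4.02-fold), while the mRNA export adaptor gene Alyref had 46.7 in cortex and 48.4 in epithelium. In the envelope, the Tor1aip genes, which encode activators of torsin ATPases, differed in opposite directions. Tor1aip1 (LAP1) had 130 in cortex and 23.8 in epithelium (5.46-fold higher in cortex), and Tor1aip2 had 3.66 in cortex and 17.2 in epithelium (4.69-fold higher in epithelium). Lpin1, a phosphatidate phosphatase whose relative in Caenorhabditis elegans acts in nuclear envelope breakdown, had 75.5 in cortex and 2.29 in epithelium, 32.9-fold higher in cortex. Vrk1, a kinase that releases BAF from chromatin in mitosis, was under the floor in cortex (0.444) and at 1.82 in epithelium, at least 3.64-fold. None of 5 lamin processing genes passed, among them Zmpste24, the protease of prelamin A, with 40.4 in cortex and 24.3 in epithelium.

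Most genes of the cell cycle were also higher in epithelium. Of 28 S phase and mitosis genes measured, none passed the 3-fold rule in cortex and 18 passed it in epithelium (64.3%, beside 8.17% of all genes). The 12 of them above the floor on both arrays had a median log2 difference of -2.33, and 3 of them were brighter in cortex, under 3-fold. The following examples from both sides were chosen after their values were seen. Cks1b had 2.64 in cortex and 18.1 in epithelium, and Pcna 10.8 in cortex and 49.0 in epithelium. Kif11, a motor of the mitotic spindle, had 5.15 in cortex and 1.85 in epithelium, and Cdc20, an activator of the anaphase-promoting complex, had 7.70 in cortex and 2.76 in epithelium, each 2.78-fold brighter in cortex. The part of dividing cells in the values of Kpna2, Lbr, Tmpo, Lmnb2, Nup107, Nup37 and Sun1 was not tested. Splicing genes, another nuclear machinery, had 3 of 57 called in cortex (5.26%, beside 9.41% of all genes) and 8 in epithelium (14.0%, beside 8.17%), and the 52 measured on both arrays had a median of -0.69. Nuclease genes, 14 measured, had 3 called in cortex (21.4%) and 4 in epithelium (28.6%), beside the same shares of all genes. With 1 array each, these differences between lists are descriptions without a test.

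**Figure D5:**
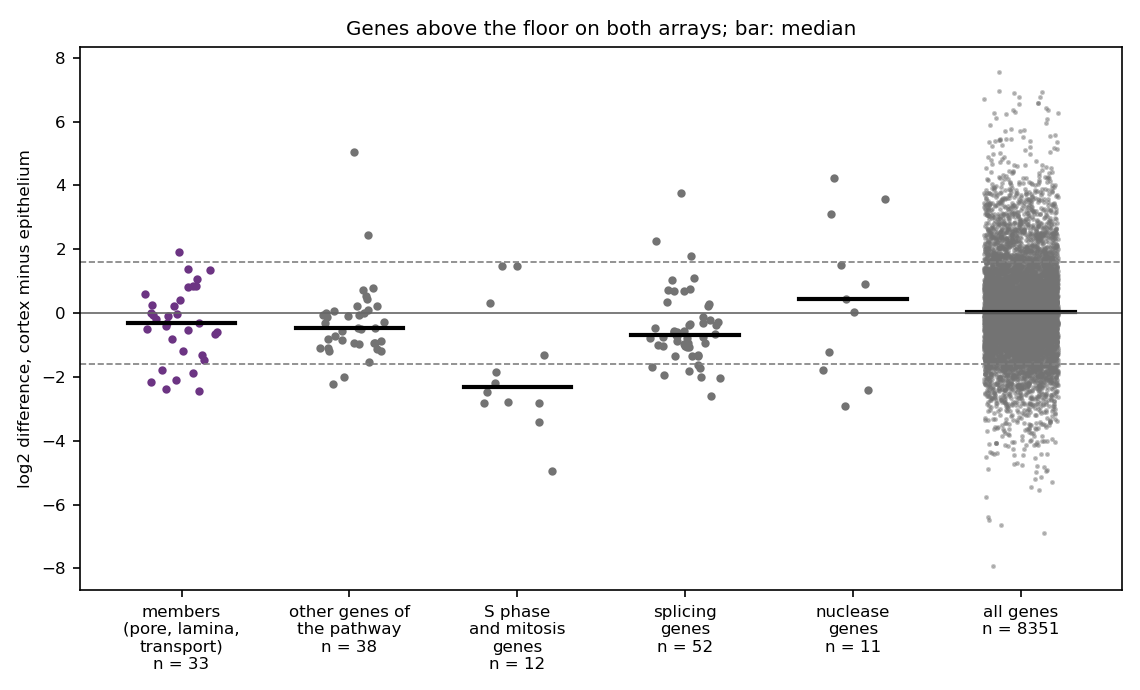
Log2 difference (cortex minus epithelium) of genes measured on both arrays in the set, in the other genes of the pathway, in 3 comparison lists and over all genes; each point is a gene, bars are medians and dashed lines mark 3-fold. The set's median of -0.30 lies nearer to the median of all genes (0.03) than that of S phase and mitosis genes (-2.33) does.

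Most markers of the labelled populations were higher on their own array, and markers of the ciliary body were brighter on the epithelium array. Of 9 fiber markers, 7 were called in cortex and none the other way, with summed intensities of 11067 in cortex and 1935 in epithelium. Of 9 epithelial markers, 7 were higher in epithelium and 1 (Cd24a) in cortex, with sums of 1044 in cortex and 683 in epithelium. Cd24a stood at 1027 in cortex and 167 in epithelium. Each sum runs over the same probes on both arrays and is set largely by the brightest of them. Of 5 ciliary body markers, 4 were higher in epithelium (sums of 10.6 in cortex and 138 in epithelium), and of 6 pigment cell markers 2 were higher in epithelium and 1 in cortex (sums of 4.50 in cortex and 14.4 in epithelium). All 3 macrophage markers were at the floor on both arrays, as were 3 of 4 endothelial markers, all but Tek. A free-text label of both samples names fetal liver of wild-type embryos at E14.5, which goes against their titles and source names and against the age of 13 days in the series' design text. Of 6 liver markers, 3 were at the floor on both arrays and 1, Ahsg, was higher in cortex (185 in cortex, 16.9 in epithelium), and of 4 erythroid markers 3 were at the floor, with Hba-a1 at 1.39 in cortex and 1.79 in epithelium. The part of ciliary body or pigment cells in the values of the set was not tested.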

How the data were processed

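Per the labels, biotin-labelled complementary RNA of each sample was hybridized to its own CodeLink array for mouse genes, detected in 1 colour with Cy5 streptavidin and quantified in the CodeLink software. The authors deposited 1 intensity per probe and array for 19819 probes, on a linear scale with each array's median near 1 (0.998 for both). How the intensities were scaled and corrected for background is not stated in the labels. Genes were named from the platform annotation, in which 15120 probes had 1 symbol. All 41 genes of the set matched RefSeq (GRCm38.p6) by Entrez identifier.

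Values were floored at 0.5 of the array median and log2 was taken. Of several probes for a gene, the brightest by mean log2 was taken. With 1 array per group there was no test. Promoter windows came from RefSeq, and protein sequences were not used here. The number of arrays limits the precision.

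The members, lists and size rules were chosen with earlier results of these data known. Values were given for every member past 3-fold, at least 2-fold different on both arrays, in the lamina, inner membrane or LINC complex, or with probes that disagree by over 3-fold. The rest were summarised or shown by role. Of other pathway genes, those past 3-fold and up to 3 per class with the highest mean value are named. Python 3.11.15, numpy 2.4.6, pandas 2.3.3, statsmodels 0.14.6 and matplotlib 3.10.9 were used.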

Additional observations from a re-analysis of the deposited data

How the results depend on the processing

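The 11 alternatives were quantile normalization, loess against brightness (with a span of 0.3), ribosomal centring (on ribosomal protein genes), a floor at the array median, no floor, the mean over probes, the probe brightest on either array, limits of 2-fold and 5-fold, a brighter array at 2 medians or more, and no filter on brightness. No paired analysis was possible because each group has 1 array. The count of members higher in cortex (1) was 0 after quantile normalization, loess, ribosomal centring or the 5-fold limit, and 5 with the 2-fold limit. Members higher in epithelium (7) numbered 11 after ribosomal centring, 5 with the mean over probes and 3 with the 5-fold limit. The median of the members was -0.59 after quantile normalization and -1.22 after ribosomal centring. With no floor the median was -0.10, but it then ran over all 41 members, not over the 33 above the floor on both arrays. Ribosomal centring gave 1 other pathway gene in cortex and 17 in epithelium, 1 splicing gene in cortex and 27 in epithelium, and over the whole array 585 genes in cortex and 2771 in epithelium, so that cortex took 17.4% of all calls instead of 53.5%. Quantile normalization gave 13 splicing genes in epithelium, and loess 2 S phase and mitosis genes in cortex. The 2-fold limit gave 9 other pathway genes in epithelium, 2 S phase and mitosis genes in cortex, 5 splicing genes in cortex and 16 in epithelium, and over the whole array 2243 genes in cortex and 2101 in epithelium. The 5-fold limit gave 0 other pathway genes in epithelium, 1 splicing gene in each direction, 2 nuclease genes in epithelium, and over the whole array 698 genes in cortex and 477 in epithelium. The floor at the median gave 2 nuclease genes in epithelium. The cause of these shifts was not tested. No called member turned its sign after quantile normalization, loess, the mean over probes or the probe brightest on either array. The second Lbr probe taken alone did turn it, with a log2 difference of 0.18 against -2.43. Signal near the floor limits Tmpo, Nup155, Nup210, Syne2 and Xpo4.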

Other observations

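Of the 7 members higher in epithelium, 4 (Nup107, Nup37, Lmnb2 and Tmpo) lie on chromosome 10 in RefSeq. The set has 6 members there, the others being Nup43 (4.90 in cortex, 4.09 in epithelium) and Syne1 (36.7 in cortex, 20.6 in epithelium), and 3 of its 35 members elsewhere were called in epithelium. Over all genes, 8.65% of 636 genes on chromosome 10 were called higher in epithelium, against 8.17% of 13014 on other chromosomes. The grouping was noticed after the values were seen.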
